A study of Mus musculus with 550 samples.

Results

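The cytosolic ribosomal protein genes were examined in single cells of differentiating mouse embryoid bodies (EBs, floating aggregates of embryonic stem cells). A gene was a member if its name was Rpl or Rps followed by a number, with or without a final a or x, by p0 to p2, or by a. These were 76 of the 55228 gene names in the count table, 46 of the large and 30 of the small subunit. The EBs were made from E14 embryonic stem cells (strain 129/Ola) by withdrawing LIF, the cytokine that keeps such cells undifferentiated. The 6 groups were EBs of wild-type cells (WT), of a Dnmt3a -/- knockout (3AKO) and of a Dnmt3b -/- knockout (3BKO), each at day 3 and at day 9. The labels name no other allele or agent. Dnmt3a and Dnmt3b encode the de novo DNA methyltransferases. The knockouts lack the gene in every cell and were kept as clones. The methods of the study speak of several clones per knockout and of EBs pooled before sorting, and the labels do not tell which clone a cell came from. Each group was therefore taken as 1 sample, so no test was run and no difference below has a replicate check.

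Of 550 sorted cells, 486 passed the filter (at least 50000 reads, 2000 genes and at most 50% mitochondrial reads), 333 in library batch 1 and 153 in batch 2. The 12 libraries, 1 per group and batch, held 21 to 61 cells and 7025902 to 22065872 reads outside the mitochondrial genes. Levels were expressed as CPM (counts scaled to the sum of those reads) and log2 ratios were taken on log2(CPM + 1), within each batch. Batches were libraries of the same plates and not replicates. At day 9 WT was on plate 234, 3AKO on plate 236 and 3BKO on plate 238, so genotype and plate cannot be told apart. Within a batch of day 3, each label was likewise on a plate of its own. The median mitochondrial share per cell was 3.58% to 6.31% in batch 1 and 9.09% to 13.5% in batch 2. At day 9 the targeted genes followed the labels: Dnmt3a stood at 27.3 and 27 CPM in the 3AKO libraries against 183 and 161 in WT, and Dnmt3b at 16.5 and 18.9 CPM in the 3BKO libraries against 161 and 211. At day 3 the batch 2 labels of the mutants went against them. The library labelled 3AKO had 383 CPM of Dnmt3a and 97.5 of Dnmt3b, while the library labelled 3BKO had 15.6 and 225 CPM. Day 3 mutant libraries are therefore called by their label and never pooled over batches.

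Ribosomal proteins build the large and small subunits of the cytosolic ribosome around the ribosomal RNAs. Their mRNAs are among the most abundant of dividing cells. They typically start with a C followed by a stretch of pyrimidines, the terminal oligopyrimidine (TOP) motif, through which growth signals such as mTORC1 set their translation together with that of translation factors. Mouse embryonic stem cells divide fast, and ribosome production is known to be adjusted when they leave pluripotency.

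Ribosomal protein genes took a large part of the non-mitochondrial reads, and this share differed more between batches than between most groups. In WT it was 11% in batch 1 and 7.11% in batch 2 at day 3, and 9.99% and 6.86% at day 9. In 3AKO at day 9 it was 11.9% and 9.99%, the highest day 9 share in either batch. In 3BKO at day 9 it was 9.47% and 5.55%, the lowest of each batch over all groups. The libraries labelled 3AKO at day 3 had 13.1% and 7.80%, and those labelled 3BKO 10.3% and 8.16%. Batch 1 was above batch 2 in all 6 groups. Without molecular identifiers, several reads can stem from 1 molecule, so intervals cover counting error only. At this depth the 95% binomial interval (Wilson) of the smallest share, in 3BKO batch 2 at day 9, ran from 5.54% to 5.57%.

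Single cells spread widely around these values. The share ranged from 1.98% to 19.7% over the 486 cells with a median of 10.2%, and its SD within a library was 1.61 to 2.84 percentage points. In batch 1 at day 9, 51 of 61 3AKO cells lay above the WT median of 10.1% (83.6%, exact binomial 95% interval 71.9 to 91.8). In batch 2, 26 of 27 did, against a WT median of 6.92% (96.3%, interval 81 to 99.9). The cells of both groups still overlapped: in batch 1 the lower quartile of 3AKO (10.4%) lay below the upper quartile of WT (10.8%), and the lowest 3AKO cell (3.04%) lay below the lowest WT cell (5.29%). Of the 3BKO cells 20 of 46 (43.5%) and 6 of 21 (28.6%) exceeded the WT median of their batch. Above the 3AKO median lay 3 of 46 and 0 of 21 3BKO cells, and 0 of 21 leaves room for a share of up to 16.1%. Cells of a library share their EBs and their amplification, so these are counts of cells and not of samples.

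**Figure D1:**
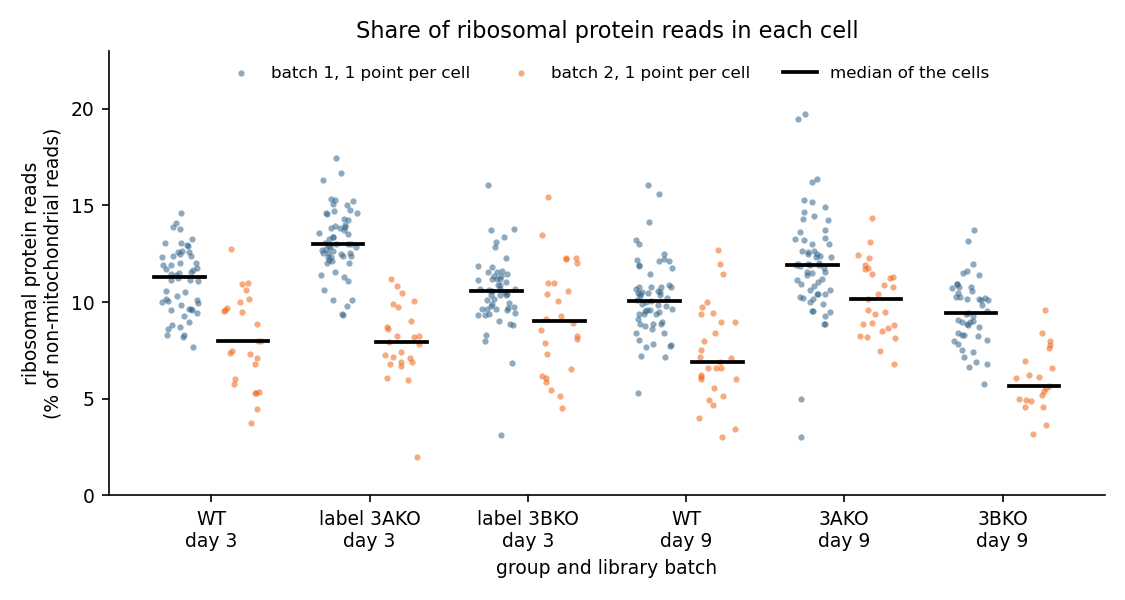
Share of ribosomal protein reads in each of the 486 kept cells, in % of non-mitochondrial reads, for each group and library batch, with the median of the cells as a bar. At day 9 the 3AKO cells sit highest in both batches (medians 11.9% and 10.2%) and the 3BKO cells lowest (9.42% and 5.65%), and batch 2 lies below batch 1 in each group.

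The members of both subunits moved together from cell to cell. The summed share of the large subunit and that of the small subunit had a Spearman correlation over the cells of a library of 0.85 to 0.96, as a description over 21 to 61 cells that share a denominator. The ratio of large- to small-subunit reads stayed between 1.25 and 1.51 in all 12 libraries, with 1.36 to 1.51 at day 3 and 1.25 to 1.32 at day 9. Against the share of TOP translation genes (elongation factors and other mRNAs of that class) the correlation was 0.40 to 0.74. Depth moved with the share in some libraries: the correlation with the reads of a cell was between -0.65 and -0.45 in WT of both days, in the library labelled 3BKO at day 3 and in 3BKO at day 9, all in batch 2, and between -0.29 and 0.07 in the other 8. The mitochondrial share of a cell correlated with it at -0.73 in the library labelled 3BKO and -0.63 in WT, both of day 3 and batch 2, at 0.50 in WT of day 3 and batch 1, and between -0.35 and 0.27 in the remaining libraries. The part of mitochondrial reads in the shares was not tested. Depth also differed between the groups. In batch 2 of day 9 the median reads per cell were 308227 in 3AKO, 374958 in WT and 692321 in 3BKO, the reverse of the order of the shares. In batch 1 they were 221582, 363538.5 and 302116.5. The part of depth was not tested. With every cell thinned to 50000 reads the day 9 shares were 11.5% in 3AKO, 9.31% in WT and 8.44% in 3BKO. Thinning draws reads at random within a cell and leaves its expected share as it was. It therefore only gives cells equal weight and cannot address the part of depth.

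Levels of single members spanned a wide range once divided by exon length. The median member stood at 498 CPM per kb of exon, as a mean over the 12 libraries. The highest was Rplp1, an acidic protein of the P stalk that recruits translation factors, at 3911 CPM per kb (1550 to 7204 over libraries). Next were Rpl4, a large-subunit protein that lines the exit tunnel, at 3108 and Rpl32, another large-subunit protein, at 2123. The lowest were Rpl24 at 0.382, Rps10 at 1.10 and Rpl29 at 72 CPM per kb. Reads that map to several places were left out of the counts, so members with near-identical pseudogenes are under-counted, and overlapping genes also take reads away. In GENCODE vM21 (GRCm38), Rpl24 (chr16:55966275-55971435) shares 71.5% of its transcript bases with the gene model Gm28037, and Rps10 (chr17:27630418-27636669) shares 91.6% of its own, mostly with a readthrough gene. Levels of these genes, and the order between genes in general, therefore describe unique reads and not RNA.

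Apart from Rpl24 and Rps10 the members were seen throughout. In total 74 of 76 had a read in at least 99% of cells, and 63 had one in every cell. Rpl24 had 0 reads in both 3AKO libraries of day 9, which allows at most 0.276 and 0.420 CPM, and 1 to 25 reads in the others. It did not pass the filter on low values (a read in 20% of the cells or more, in 1 of the groups compared, in both batches), so 75 members were compared. Rps10 passed, with 11 to 50 reads per library.

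At day 9, 3AKO cells had higher CPM than WT across nearly all members. The median member had a log2 ratio of 0.29 in batch 1 and 0.58 in batch 2, while the median of all genes tested was -0.06 and -0.05. In batch 1, 67 of 75 members were higher, and 68 in batch 2. In both batches 62 members were higher, where 24.6% of the 9185 genes tested were, and 2 were lower (32.2% of genes). The shift was alike in both subunits, with medians of 0.28 and 0.58 for the large and 0.28 and 0.60 for the small subunit. It was therefore a broad and modest shift, and few members passed the fold of 0.5 in both batches: 4 members did (5.06% of genes), and 0 were lower by as much (8.02% of genes).

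These 4 were Rps12, Rpsa, Rpl10a and Rpl41. Rps12, a protein of the small-subunit beak, was at 558 and 358 CPM in WT (batch 1 and 2) and at 906 and 725 CPM in 3AKO, log2 ratios of 0.70 and 1.02. Rpsa, the laminin-receptor-related protein of the small subunit, was at 1382 and 1078 CPM in WT and at 2047 and 1928 in 3AKO (0.57 and 0.84). For both genes the lower 3AKO library lay above the higher WT library. Rpl10a, a protein of the L1 stalk through which spent tRNA leaves, was at 544 and 333 CPM in WT and 811 and 567 CPM in 3AKO (0.58 and 0.77). Rpl41, among the shortest known proteins, was at 1467 and 815 CPM in WT and 2137 and 1551 CPM in 3AKO (0.54 and 0.93). Again each 3AKO library exceeded both WT libraries. Exact Poisson intervals of these levels cover counting error only, for example 548 to 568 CPM against 890 to 922 CPM for Rps12 in batch 1. They did not overlap within a batch, which follows from the fold of 0.5 at such read counts and adds no support.

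The lowest ratio of batch 1 belonged to Rpl13, a large-subunit protein on chromosome 8 (chr8:123102350-123105244). It was at 3797 and 2153 CPM in WT and at 2810 and 2259 CPM in 3AKO at day 9, log2 ratios of -0.43 and 0.07. As a share of ribosomal protein reads it was 2.36% and 2.26% in 3AKO, 3.80% and 3.14% in WT, and 4.20% and 3.40% in 3BKO. The same gene was low at day 3 in the library labelled 3AKO of batch 1 (2.31%) and in the library labelled 3BKO of batch 2 (1.63%), both from plate 211, and stood at 2.94% to 3.95% in the other 4 day 3 libraries. The 4 libraries with Dnmt3a at 27.5 CPM or less were thus the 4 with the lowest share of Rpl13. How many other members or genes set the same 4 libraries apart was not counted. Rpl13 was singled out here after its values were seen, apart from the comparison of 3BKO with 3AKO below, where the rule for named genes picked it.

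3BKO cells at day 9 differed from WT less evenly. The median member had a log2 ratio of -0.06 in batch 1, the same as the median of all genes (-0.05), and of -0.31 in batch 2 (all genes -0.06). In batch 1, 26 of 75 members were higher, and 10 in batch 2. In both batches 8 members were higher (29.3% of 9219 genes) and 47 lower (36.9% of genes). With median-ratio size factors the batch 1 median was 0.02 and 41 members were higher, so no direction can be given for batch 1. None of the members reached 0.5 in both batches (0, against 9.64% of genes), and 3 reached -0.5 (14.8% of genes), a smaller share than among all genes. With TMM or median-ratio factors this count was 0.

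Among these were Rpl4 and Rpl29, both of the large subunit. Rpl4 (chr9:64173375-64178666) was at 7214 and 4744 CPM in WT and at 4977 and 2880 CPM in 3BKO, log2 ratios of -0.54 and -0.72. Rpl29, a small basic protein, was at 105 and 53.3 CPM in WT and at 72.4 and 30.4 CPM in 3BKO (-0.53 and -0.79). In both, the batch 1 level of 3BKO still lay above the batch 2 level of WT, so the groups separate within a batch but overlap across batches.

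**Figure D2:**
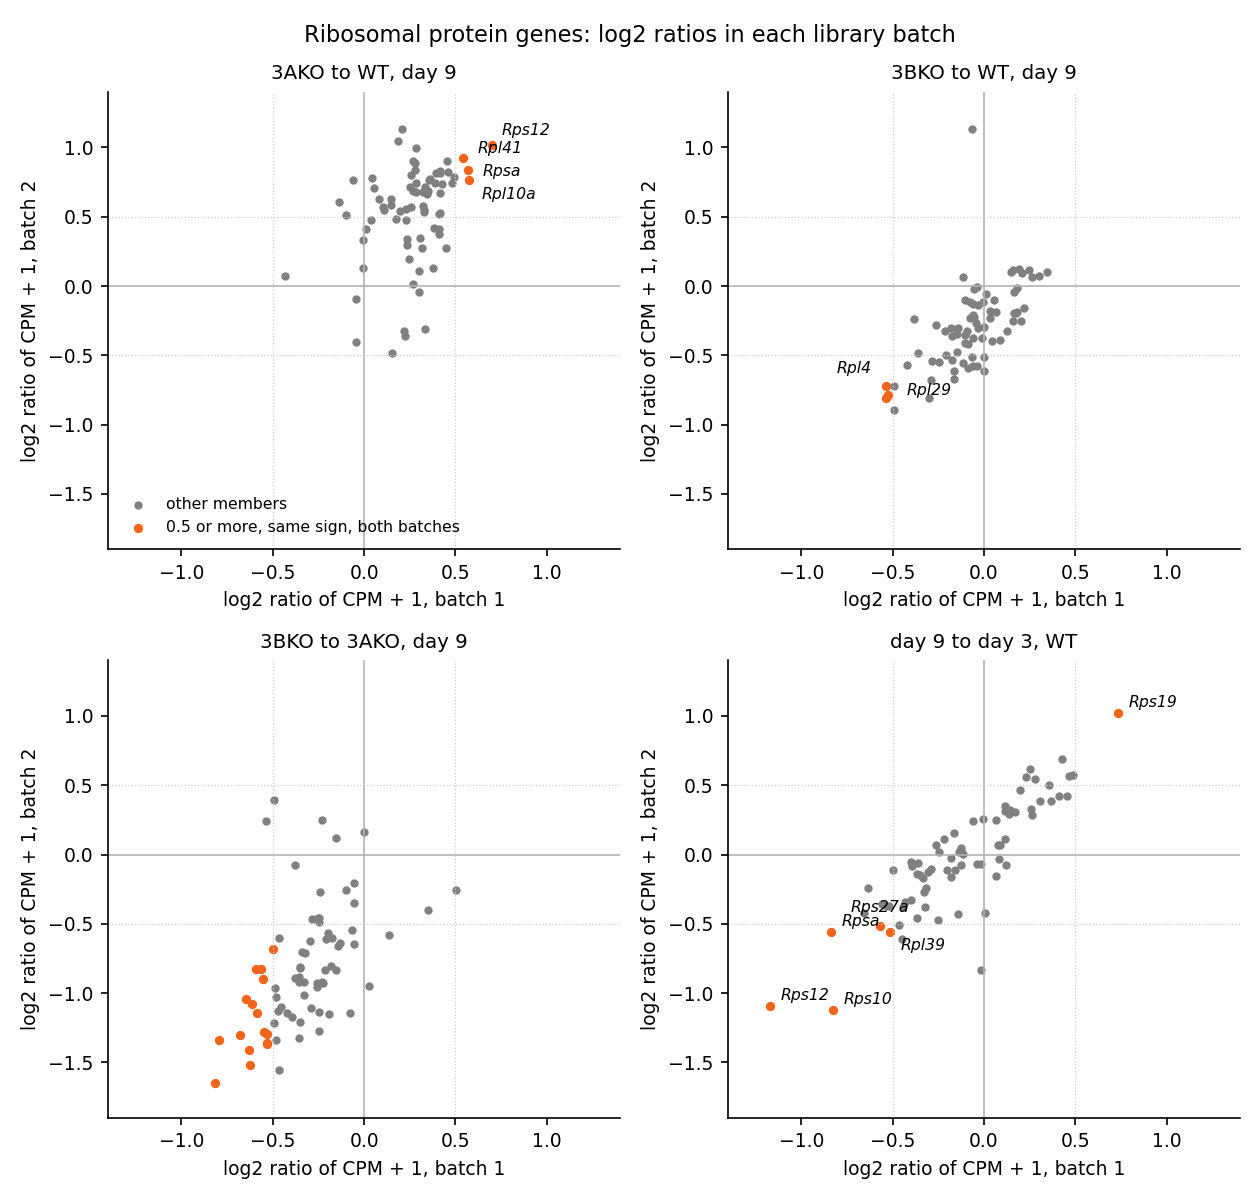
Log2 ratio of each of the 75 members compared, batch 1 on the horizontal and batch 2 on the vertical axis, for the day 9 contrasts and for WT from day 3 to day 9. Orange points are at least 0.5 in size with the same sign in both batches, 4 for 3AKO to WT, 3 for 3BKO to WT, 16 for 3BKO to 3AKO and 6 for day 9 to day 3.

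Set against each other, the 2 knockouts stood further apart than either from WT. The median member was lower in 3BKO than in 3AKO by a log2 ratio of -0.33 in batch 1 and -0.89 in batch 2, with all genes at 0.00 and -0.01. In both batches 66 of 75 members were lower (34.1% of 9138 genes) and 0 higher (32.5%). By 0.5 or more, 16 were lower in both batches (13.9% of genes) and 0 higher (13.3%). In batch 2 alone 59 members were lower by that much. Among those with the lowest mean over batches were Rpl41 (-0.63 and -1.52), Rps12 (-0.79 and -1.34), Rpsa (-0.63 and -1.41) and Rpl4 (-0.68 and -1.30). The set also held Rplp1, Rpl28, Rpl18, Rpl13a, Rps16, Rpl27a, Rpl10a, Rpl7, Rpl22, Rpl9 and Rplp0, from -0.53 and -1.36 for Rplp1 to -0.50 and -0.68 for Rplp0, and Rpl13a shares 59.3% of its transcript bases with other genes. Against WT, which both contrasts share as control, 38 of 75 members were higher in 3AKO and lower in 3BKO in both batches (6.65% of 8751 genes), and 0 had the opposite pair of directions (6.78%). No test of that difference was possible, and each of these groups was on a plate of its own.

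Cell type markers also differed between these groups. The 12 epiblast markers, the genes of undifferentiated cells, summed to 9469 and 6071 CPM in WT, 8693 and 7622 in 3AKO and 13638 and 9207 in 3BKO. All 12 had reads in each day 9 library, except Fgf5 in 3BKO batch 2. The list did not move as one. In 3BKO against WT, 7 of the 12 were higher in both batches and 4 lower. The sum is carried by Dppa5a (4689 and 2448 CPM in WT, 6876 and 4160 CPM in 3BKO) and Zfp42 (1060 and 951 CPM, then 2893 and 2045 CPM). Pim2 went from 435 and 434 CPM in WT to 24.8 and 7.82 CPM in 3BKO. The 12 ectoderm markers summed to 581 and 362 CPM in WT, 512 and 332 in 3AKO and 277 and 147 in 3BKO, where Sox1, Fabp7, Zic1, Pou3f2 and Nes were at 0 in both libraries. In WT, Pou3f2 was at 0 in both libraries and Zic1 and Nes in batch 2, so for these 3 the zeros do not set 3BKO apart. The ectoderm list did not move as one either. Of its 5 genes that passed the filter on low values, Tubb3 had a higher CPM in 3BKO in both batches and 4 a lower one. Tubb3, which carried most of the 3BKO sum, had 3270 and 908 reads in WT and 3288 and 1607 in 3BKO. Vim had 6617 and 1480 reads in WT and 236 and 56 in 3BKO. Sox2 and Otx2 stand in the epiblast list here, while the study also uses Sox2 as an ectoderm marker and Otx2 as an early one. Sox2 had 1043 and 454 reads in WT and 1073 and 1420 in 3BKO. Otx2 had 3320 and 1323 reads in WT and 3316 and 3679 in 3BKO. Both genes had a higher CPM in 3BKO in both batches. These libraries held 22065872 and 10666483 reads in WT and 13536344 and 14457977 in 3BKO. The 12 meso-endoderm markers summed to 175 and 226, 128 and 155, and 73.9 and 63.5 CPM, with 2 and 5 of the 12 at 0 in WT, 2 and 6 in 3AKO and 5 and 10 in 3BKO. The meso-endoderm sums rest on single genes. Dab2 was 165 of the 226 CPM of WT batch 2, and Eomes, at 50 CPM in 3BKO batch 2, was higher there than in WT (9 CPM). The part of cell type in the ribosomal protein levels was not tested.

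In WT, ribosomal protein genes took a slightly smaller part of the reads at day 9 than at day 3. The median member had a log2 ratio of -0.14 in batch 1 and -0.07 in batch 2, and the median of all genes was 0.13 and 0.12. In both batches 24 members were higher (41.1% of 10146 genes) and 38 lower (26.7%). By 0.5 or more 1 was higher (16.2% of genes) and 5 were lower (9.73%). Scaling mattered: with the mitochondrial genes kept in the total the batch 2 median was 0.04, and under TMM factors, which put the median of all genes at -0.02 and -0.01, it was -0.31 and -0.21. Relative to the median of all genes the members lay lower in both batches. Other totals or factors move all genes of a library nearly alike, so they could not change this.

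The member that was higher was Rps19, a small-subunit protein mutated in Diamond-Blackfan anaemia. It was at 1566 and 754 CPM at day 3 and at 2603 and 1533 CPM at day 9, log2 ratios of 0.73 and 1.02. The 5 lower members were Rps12, Rpsa, Rps27a, Rpl39 and Rps10. Rps12 was at 1258 and 765 CPM at day 3 and 558 and 358 CPM at day 9 (-1.17 and -1.09), so that both day 9 libraries were below both day 3 libraries. Rpsa was at 2473 and 1588 CPM and then at 1382 and 1078 CPM (-0.84 and -0.56). Rps27a, made as a fusion with ubiquitin, was at 3111 and 2915 CPM and then at 2095 and 2034 CPM (-0.57 and -0.52). Rpl39, an X-linked protein of the exit tunnel, was at 312 and 1104 CPM and then at 218 and 750 CPM (-0.52 and -0.56), and its batches stood further apart than its days. Rps10 had 34 and 24 reads at day 3 and 30 and 11 at day 9, or 3.19 and 3.42 CPM against 1.36 and 1.03 CPM, with counting intervals of 2.21 to 4.46 and 0.917 to 1.94 CPM in batch 1.

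The composition of the ribosomal protein reads differed between the days in the same members whatever the genotype label. Dividing each member by the summed ribosomal protein reads takes out a shift common to all members. In other genes it adds the opposite of that shift, so percentages of all genes under this measure are not like for like. Under that measure, 5 of 75 members were higher in every day 9 library than in every day 3 library (3.78% of 8897 genes divided in the same way), and 6 were lower (1.60%). This comparison was added after seeing the data. The libraries came from plates 209, 210 and 211 at day 3 and from plates 234, 236 and 238 at day 9. Each plate was split over both batches, so the libraries of a plate are not separate replicates. Each plate held cells of 1 day, so day and plate cannot be told apart.

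Rps19 had 1.06% to 1.58% of ribosomal protein reads over the 6 day 3 libraries (median 1.37%) and 2.24% to 2.61% over the 6 day 9 libraries (median 2.35%). Rps26, which contacts mRNA at the exit channel, had 1.19% to 1.57% and then 1.61% to 2.45%. Both sets of libraries are separated, by a wide gap for Rps19 and a narrow one for Rps26. Rps28 (medians 0.696% and 0.840%) and Rpl34 (0.355% and 0.458%) followed with smaller differences. In the other direction, Rps12 had 0.969% to 1.41% (median 1.11%) and then 0.514% to 0.760% (median 0.555%). Rpsa had 2.23% to 2.38% (median 2.33%) and then 1.30% to 1.93% (median 1.48%). The remaining 4 were Rpl8, Rpl22, Rpl21 and Rpl14, from log2 ratios of medians of -0.47 for Rpl8 to -0.07 for Rpl14. Rps12 and Rpsa were also among the 4 members higher in 3AKO than in WT at day 9, at 0.760% and 0.726% of ribosomal protein reads for Rps12 in 3AKO against 0.558% and 0.521% in WT.

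**Figure D3:**
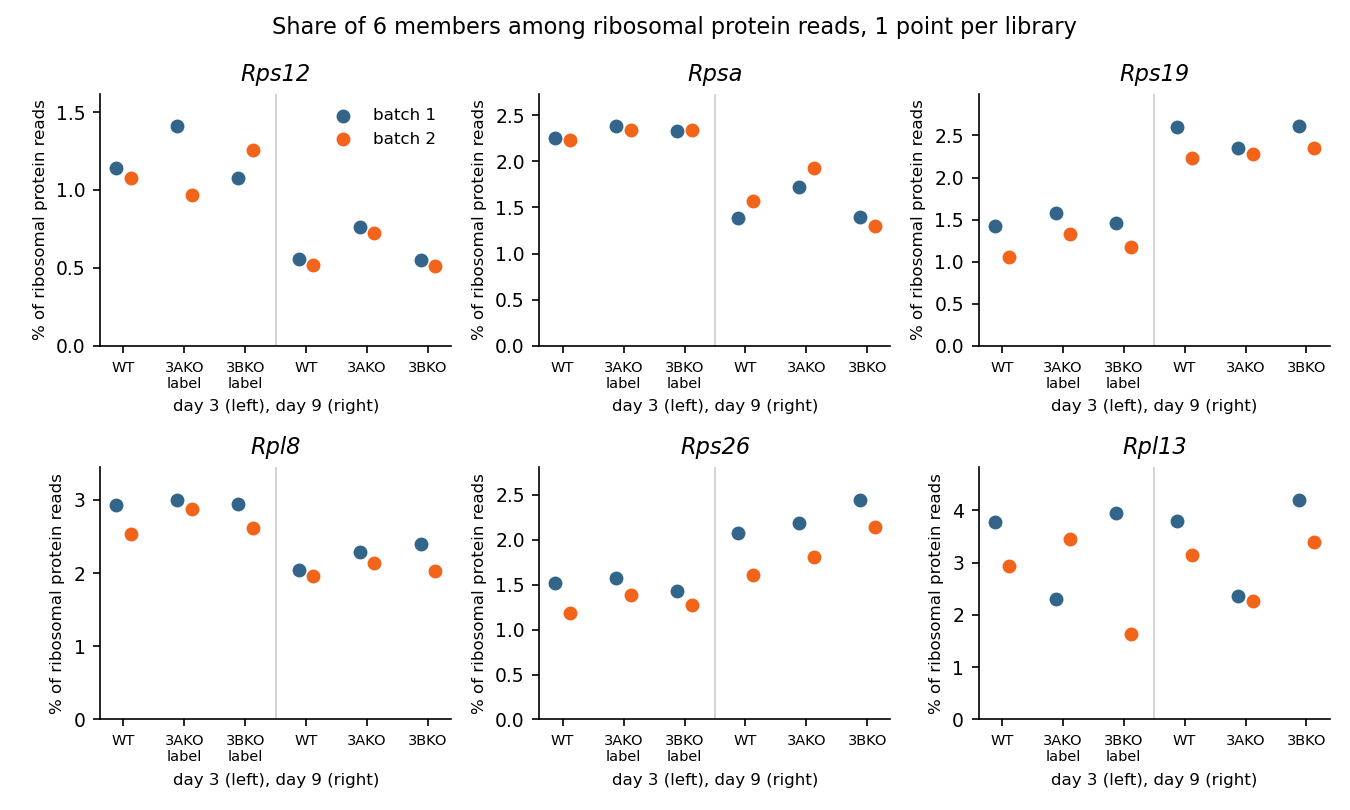
Share of 6 members among ribosomal protein reads, in %, for each group, with 1 point per library (blue batch 1, orange batch 2) and a line between day 3 and day 9. Rps12, Rpsa and Rpl8 lie lower and Rps19 and Rps26 higher in every day 9 library, while Rpl13 is lowest in both day 9 3AKO libraries and in the day 3 libraries labelled 3AKO in batch 1 and 3BKO in batch 2.

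Measured within WT and by batch, 7 members shifted their share by at least 0.5 on the log2 scale in both batches (30.1% of 10146 genes divided in the same way). Among them, Rps19 (0.87 and 1.07), Rps27 (0.57 and 0.74) and Rpl38 (0.61 and 0.62) were higher at day 9, and Rps10 (-1.09 and -1.68), Rps12 (-1.04 and -1.05) and Rpsa (-0.70 and -0.51) lower. Over the 75 members the shifts of batch 1 and batch 2 had a Pearson correlation of 0.88, as a description over genes. From day 3 to day 9 under the label 3AKO, Rps19 (0.57 and 0.78) was higher and Rps10 (-0.55 and -0.53) lower (21.1% of 9932 genes). Under the label 3BKO, Rpl37 (0.92 and 0.88), Rps19 (0.84 and 1.00) and Rps26 (0.77 and 0.75) were among those higher, and Rps12 (-0.97 and -1.29) and Rpsa (-0.73 and -0.85) lower, 6 members in all (35% of 10027 genes). Fewer members shifted between genotypes at day 9. It was 0 against WT in 3AKO (24.9% of 9185 genes) and in 3BKO (26.6% of 9219), and between 3BKO and 3AKO it was 1 (38.1% of 9138), Rpl13 (0.83 and 0.59). Each of these shares of members lies below that of all genes, but the 2 are not measured on like terms. The division takes the common shift out of the members and adds its opposite to the other genes.

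The bases around the annotated start of the members that carry these differences are shown here, since the TOP motif lies there. Each run has 15 bases before and 15 from the RefSeq start on, 5′ to 3′ on the gene strand (GRCm38.p6), with the longest run of C and T in capitals. RefSeq starts can differ by some bases from the start used in these cells.
Rps12, chr10:23787195-23787224, minus strand: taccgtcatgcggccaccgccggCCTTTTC
Rpsa, chr9:120127751-120127780, plus strand: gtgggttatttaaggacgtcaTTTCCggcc
Rps19, chr7:24884577-24884606, plus strand: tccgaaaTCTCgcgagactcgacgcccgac
Rps26, chr10:128626492-128626521, minus strand: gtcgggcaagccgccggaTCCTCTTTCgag
Rpl4, chr9:64173372-64173401, plus strand: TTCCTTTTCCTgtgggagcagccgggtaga
Rpl13, chr8:123102335-123102364, plus strand: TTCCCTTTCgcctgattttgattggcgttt
Rpl10a, chr17:28328456-28328485, plus strand: gtggcgCCCCCCCagcggccgcaaactgca
Rpl41, chr10:128549154-128549183, minus strand: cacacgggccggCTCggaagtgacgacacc
Rps26, Rpl4 and Rpl13 hold a run of 8 or more pyrimidines in this window, and the other 5 do not.

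Over the family the window was richer in such runs than over other genes. Of 56 members with a RefSeq promoter entry, 23 (41.1%) had a run of at least 8 C or T in the 30 bases, against 11.9% of 27025 promoters. A run of at least 8 purines, the same feature on the other strand, was in 2 (3.57%) against 12.9%. In the whole window of 300 bases, read on both strands, CGGAAG was in 39 (69.6%) against 17.2% of all, GGGCGG in 33 (58.9%) against 35.9%, AAGATGGC in 4 (7.14%) against 2.88% and TATAAA in 5 (8.93%) against 14.2%. None of these words contains another. Matches are descriptions of letters and not of bound factors.

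At day 3 the members were higher than in WT in both batches under the label 3AKO, and changed sign between batches under the label 3BKO. For the library labelled 3AKO against WT, 73 of 75 members were higher in batch 1 (52% of 10845 genes) with a median of 0.30, and 56 in batch 2 (52.5% of 11200) with a median of 0.23. That batch 2 median was 0.03 as a mean over cells (42 of 75 higher) and 0.02 with cells thinned to 50000 reads (39 of 74), so it depends on how cells are weighted. For that labelled 3BKO, 17 were higher in batch 1 (52.1% of 10628) with a median of -0.07, and 67 in batch 2 (49.3% of 11150) with a median of 0.26. Taken by plate instead of by label, an alternative added after seeing the data, plate 211 had Dnmt3a at 27.5 and 15.6 CPM and plate 210 had Dnmt3b at 177 and 97.5 CPM, against 480 and 322 CPM of Dnmt3a and 633 and 630 CPM of Dnmt3b on the WT plate 209. From plate 209 to plate 211, 67 of 75 members were higher in both batches (31.4% of 10395 genes), with medians of 0.30 and 0.26. From plate 209 to plate 210 the medians were -0.07 and 0.23, and the second is the value that fell to 0.03 or 0.02 under the other weightings of cells. In single cells of batch 1, 51 of 58 labelled 3AKO (87.9%) and 15 of 54 labelled 3BKO (27.8%) lay above the WT median of 11.3%. In batch 2, 12 of 25 labelled 3AKO (48%) and 17 of 26 labelled 3BKO (65.4%) lay above 7.96%.

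Between day 3 and day 9 the batches differed in sign under the label 3AKO, and both were lower at day 9 under the label 3BKO. For 3AKO, 28 members were higher at day 9 in batch 1 (52.9% of 10510 genes, median -0.13) and 62 in batch 2 (50.6% of 10878, median 0.37). For 3BKO, 28 were higher in batch 1 (50.3% of 10527, median -0.10) and 7 in batch 2 (50.7% of 11177, median -0.56). The batch 2 values rest on the day 3 labels in doubt.

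The P stalk (Rplp0, Rplp1 and Rplp2), which stimulates elongation factor GTPases, was higher in 3AKO than WT at day 9 in all 3 members and both batches. So were 62 of the 75 members compared (24.6% of all genes). Direction alone therefore sets neither the P stalk nor Rpl5 and Rpl11, given below, apart from the family. Rplp0 was at 3383 and 2380 CPM in WT and 4428 and 3991 CPM in 3AKO (0.39 and 0.75). Rplp2 was at 1047 and 575 CPM and at 1432 and 1076 CPM (0.45 and 0.90), and Rplp1 had 0.42 and 0.81. Against WT, 3BKO had Rplp2 higher in both batches (0.30 and 0.07) and Rplp1 lower (-0.11 and -0.55). Rpl5 and Rpl11, which join 5S RNA into the central protuberance and bind Mdm2 when free, were both higher in 3AKO (0.38 and 0.13 for Rpl5, 0.39 and 0.82 for Rpl11). In 3BKO their signs differed between batches.

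The X-linked members besides Rpl39 are Rps4x, Rpl10 and Rpl36a. Rpl10, which completes the peptidyl transferase centre late in maturation, was at 1629 and 1085 CPM in WT and 2173 and 1932 CPM in 3AKO at day 9 (0.42 and 0.83). Rps4x had ratios of 0.45 and 0.27 and Rpl36a of 0.41 and 0.41. In 3BKO the sign of Rps4x and Rpl36a differed between batches, and Rpl10 had -0.07 and -0.51. Of the 76 members, 14 lie on chromosome 7 and 4 on X, and the family is spread over 19 chromosomes.

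Of the paralogs outside the member list, some moved with their partner and others did not. Rpl10l, an autosomal retrocopy of Rpl10 known from the male germline, was at 238 and 230 CPM in 3BKO at day 9 and at 22.4 to 93.1 CPM in the other 10 libraries, with log2 ratios to WT of 1.5 and 1.7. Both 3BKO libraries of day 9 stood far above all others. Its partner Rpl10 was at 1556 and 762 CPM there, so Rpl10l did not reach the level of the parent gene, and near-identical stretches of the copies give no unique reads. Rpl22l1 was higher in WT at day 9 than at day 3 (253 and 674 CPM against 106 and 289, log2 ratios of 1.25 and 1.22), while Rpl22 had -0.40 and -0.05. Rps27l, a p53-induced relative of Rps27, was higher together with its partner in that contrast (0.74 and 0.46, with Rps27 at 0.43 and 0.69). Rpl7l1 had 0.40 and 0.07 (Rpl7 -0.33 and -0.27), and Rpl36al had -0.40 and -0.88 (Rpl36a 0.11 and 0.11). Rpl3l (0.0938 to 33.1 CPM) and Rpl39l (8.81 to 77.1 CPM) were low throughout and varied between libraries without following group or batch. Rps4l, a copy of Rps4x, was at 409 to 1268 CPM. Over the 7 paralogs tested at day 9, 1 was higher and 2 lower in both batches in 3AKO against WT (24.6% and 32.2% of all genes). In 3BKO 4 were higher and 1 lower (29.3% and 36.9%).

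Other parts of the translation machinery were compared to see how far the shift of 3AKO and 3BKO reached. The 4 listed ribosomal proteins whose names fall outside the pattern, Rps3a1, Fau and Rack1 among them, had higher values in 3AKO in both batches (median 0.26 and 0.75) and lower ones in 3BKO (-0.17 and -0.27). Of the 309 annotated ribosomal protein pseudogenes that were counted, 76 were tested, and 50 were higher in 3AKO in both batches (24.6% of all genes) and 6 lower (32.2%). Reads of members and of their processed copies can be exchanged, so these 50 are not apart from the members. Of 18 TOP translation genes, 7 were higher and 3 lower in 3AKO in both batches. In 3BKO 17 were lower in both batches (36.9% of all genes) and 0 higher (29.3%), with medians of -0.32 and -0.48. Among them Eef1a1, the main carrier of aminoacyl-tRNA, was at 10118 and 7265 CPM in WT, 11248 and 11405 CPM in 3AKO and 9574 and 5589 CPM in 3BKO. Eef2, the translocase, was at 1124 and 938 CPM in WT, 1372 and 1307 CPM in 3AKO and 961 and 626 CPM in 3BKO, and had been at 2556 and 1436 CPM in WT at day 3. The order 3AKO, WT, 3BKO thus held for both genes within each batch.

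Of 43 ribosome biogenesis genes, 12 were higher and 7 lower in 3AKO against WT in both batches (24.6% and 32.2% of all genes, medians 0.03 and 0.06). In 3BKO 12 were higher and 21 lower (29.3% and 36.9% of all genes, medians -0.09 and -0.24). Their medians thus held the same order by smaller amounts than those of the members, apart from 3BKO in batch 1, where the median member had -0.06. Between the days in WT 10 were higher (41.1% of all genes) and 23 lower (26.7%), 13 of them by 0.5 or more (9.73%), with medians of -0.18 and -0.25. Ncl, a nucleolar protein of rRNA processing, was at 2755 and 4049 CPM at day 3 and 1408 and 2407 CPM at day 9 (-0.97 and -0.75). Fbl, the rRNA methyltransferase, was at 93.7 and 58.1 CPM and then 45.5 and 39.8 CPM (-1.03 and -0.53), and Npm1, a nucleolar chaperone, had -0.39 and -0.61. These nucleolar genes were thus lower at day 9 by more than the median member was. Of 15 RNA polymerase I genes, 3 were higher and 7 lower in 3AKO and 6 and 4 in 3BKO, and of 19 initiation factors 8 and 7 in 3AKO and 10 and 5 in 3BKO. Counts near the share of all genes do not set a list apart, here and below. Of 10 growth control genes, 0 were higher and 3 lower in 3AKO, and 1 and 4 in 3BKO. Myc, which drives ribosome biogenesis, was at 70.5 and 31.9 CPM in WT, 51.5 and 69.8 CPM in 3AKO and 26.4 and 34.4 CPM in 3BKO, and Mycn at 183 and 200, 236 and 147, and 275 and 200 CPM. Neither had the same sign in both batches in either contrast with WT.

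The ribosome of the mitochondrion, a separate machine encoded by other nuclear genes, showed a different pattern from that of the cytosol. Of 76 genes tested, 6 were higher and 34 lower in 3AKO in both batches (24.6% and 32.2% of all genes, medians -0.26 and 0.01). In 3BKO 7 were higher and 56 lower (29.3% and 36.9% of all genes, medians -0.35 and -0.42), 23 of them by 0.5 or more (14.8%). From day 3 to day 9 in WT, 55 were higher and 3 lower (41.1% and 26.7% of all genes, medians 0.57 and 0.27). Proteasome genes had 5 higher and 10 lower of 36 in 3AKO, 8 and 14 of 35 in 3BKO and 25 and 5 of 36 between the days. The 7 p53 checkpoint genes were all higher in 3BKO than in WT in both batches (medians 0.39 and 0.59), while 1 was higher and 4 lower in 3AKO. Of 14 proliferation genes, 3 were higher and 7 lower in 3AKO and 2 and 8 in 3BKO.

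**Figure D4:**
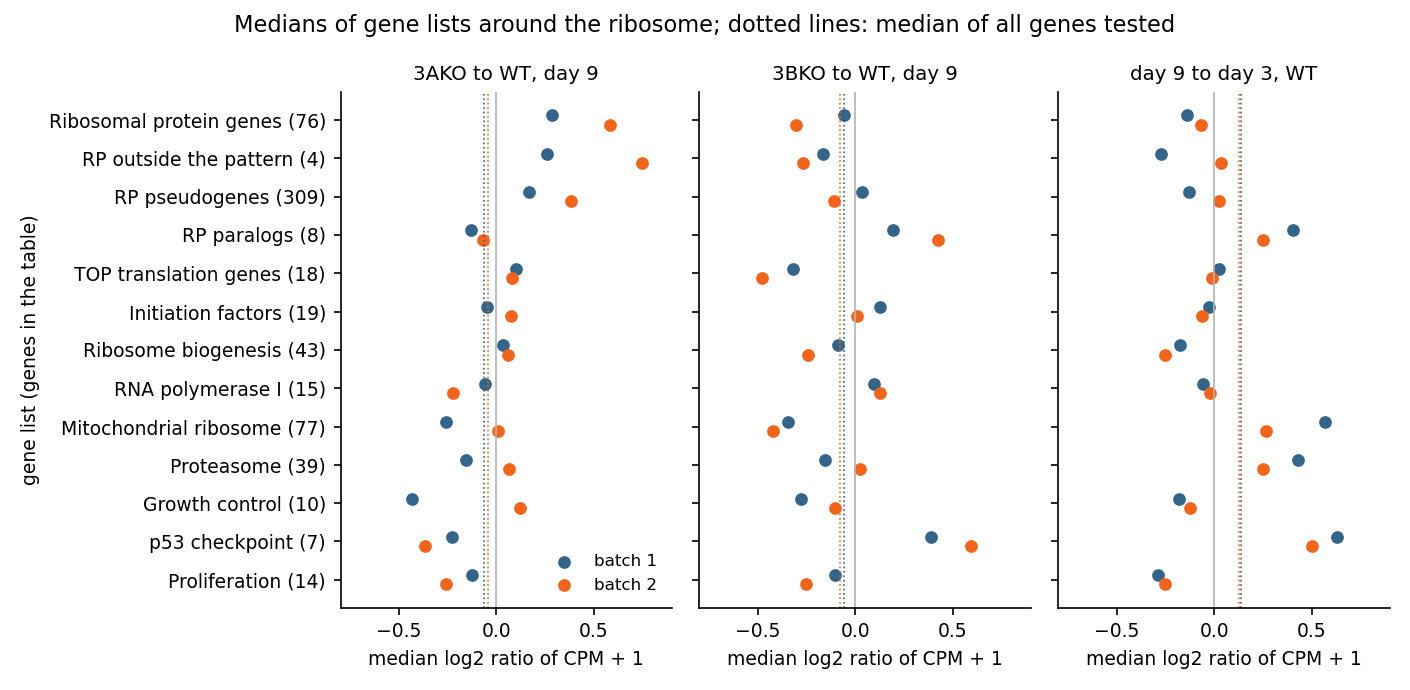
Median log2 ratio of gene lists around the ribosome, per batch (blue batch 1, orange batch 2), for 3AKO to WT and 3BKO to WT at day 9 and for day 9 to day 3 in WT, with the number of list genes in the table in brackets and the medians of all genes tested as dotted lines. In 3AKO the ribosomal protein genes lie highest together with those outside the pattern and the pseudogenes, while the paralogs do not (-0.13 and -0.07). TOP translation genes and the mitochondrial ribosome lie lowest in 3BKO, and the mitochondrial ribosome lies above the cytosolic one in WT from day 3 to day 9.

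The difference between batches touched most members. Of the 74 members detected in every library, 60 were lower in batch 2 than in batch 1 in all 6 groups (18.9% of 6623 genes), and 3 were higher in all 6 (17.4%). These 3 were Rpl23, Rpl30 and Rpl39. Rpl30 was at 135 to 292 CPM in batch 1 and 361 to 1203 CPM in batch 2, with no overlap, and Rpl39 at 218 to 390 CPM against 606 to 2045 CPM. The median over groups of the log2 ratio of batch 2 to batch 1 had a Pearson correlation with the GC content of the coding transcript of -0.44 over the 74 members (Spearman -0.54), and a Spearman correlation with transcript length of 0.37. Among the day 9 contrasts GC correlated with the ratio of 3AKO to WT at -0.05 in batch 1 and 0.48 in batch 2, and with that of 3BKO to 3AKO at -0.07 and -0.52. The larger medians of batch 2 in these contrasts thus came with a relation to GC, and the batch 1 median of 3AKO to WT (0.29) with a GC correlation of -0.05. The part of GC was not tested in either batch.

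**Figure D5:**
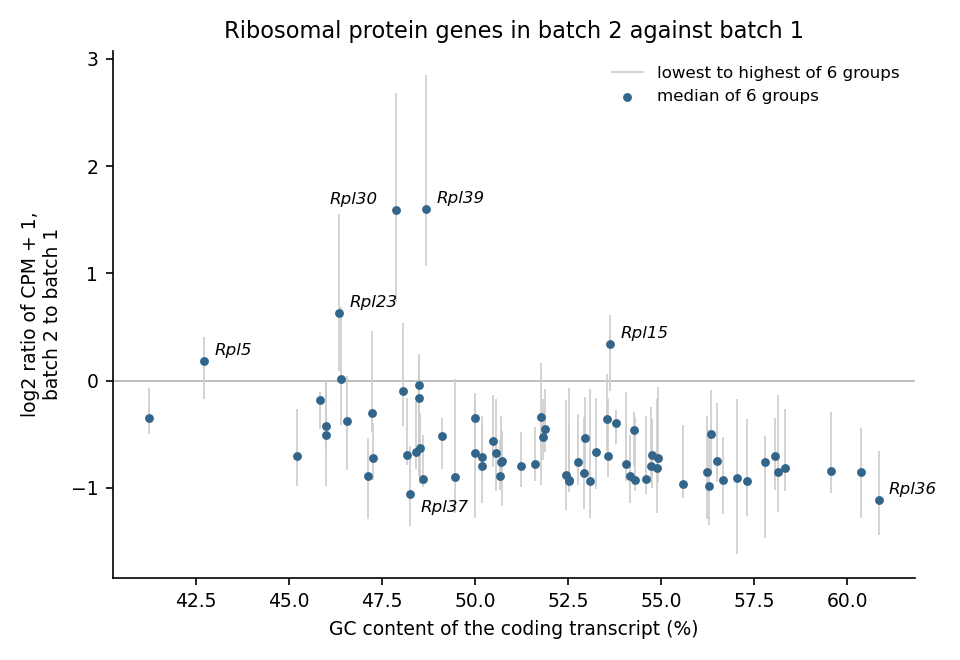
Log2 ratio of batch 2 to batch 1 for the members against the GC content of their coding transcript in %, as the median over 6 groups with a line from the lowest to the highest group. Most members lie below 0 and lower at high GC, and Rpl30 and Rpl39 lie far above.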

How the data were processed

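Full-length cDNA libraries were made from sorted EB cells by a variant of Smart-seq2, 1 cell per well. The authors deposited raw read counts per gene name: per the labels and the methods of the study, single-end reads were trimmed (Trim Galore 0.5.0), aligned to GRCm38 (STAR 2.7.1a) and assigned to GENCODE exons (featureCounts 1.6.1), without multi-mapped reads. Use of the strand in counting is not given in the sources used here. The table also had 26 columns of empty or mini-bulk wells, which were not used.

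For each group and batch, the counts of the cells that passed the filter were added up, and CPM were taken over all genes except 37 mitochondrial ones. Ratios were taken on log2(CPM + 1), which understates low genes. A gene was compared if seen in 20% of cells of either group, in each batch. Doublets were not looked for, since each well received 1 sorted cell. Intervals are 95%, exact (Poisson or Clopper-Pearson) for levels and cells and Wilson for shares of reads. TMM (edgeR 4.0.16) and median-ratio factors (DESeq2 1.42.0) served as alternatives in R 4.3.3; the rest ran in Python 3.11.15 with numpy 2.4.6, pandas 2.3.3 and scipy 1.17.1. Scripts were tested on simulated data. With 1 sample per group no test was made. Positions are from GENCODE vM21 (GRCm38), which holds 97.0% of the gene names, and promoter sequences from RefSeq (GRCm38.p6), which matched 56 of 76 members.

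Members were named if their log2 ratio, or that of their share of ribosomal protein reads, was at least 0.5 in size with the same sign in both batches (at most 5 each way), if they were the 3 highest or lowest per exon length, or if they belonged to the P stalk, the 5S particle, chromosome X or a pair with a paralog. Eef1a1, Eef2, Npm1, Ncl, Fbl, Myc and Mycn were named as well. A few genes that this rule or a list picks are not reported here. The members and all gene lists were chosen with earlier results of these data known, so their counts are not independent evidence. Alternatives were other cell filters, a single batch, CPM averaged over cells, thinned cells, other totals, scaling factors, pseudocounts and detection limits. Those by plate, over all libraries of a day, by transcript length, and without members overlapping other genes were chosen after seeing the data.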

Additional observations from a re-analysis of the deposited data

Results flagged for a closer look

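Against the same WT libraries at day 9, the sum of the ribosomal protein reads was higher in 3AKO (log2 ratios of 0.25 and 0.54 in batch 1 and 2) and lower in 3BKO (-0.08 and -0.30), a mean distance from 3AKO to 3BKO of -0.59. It was picked out because both libraries of one knockout lay above WT and both of the other below it. With 1 sample per group the difference was not tested, here or for the genes that follow.

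The same held for 38 of the 75 members compared, and for 6.65% of 8751 genes. Of the members that reached 0.5 in a day 9 contrast in both batches, the mean distance was, for example, -1.07 for Rpl41 and for Rps12, -1.02 for Rpsa, -0.99 for Rpl4, -0.95 for Rplp1 and for Rpl28, -0.92 for Rpl18, -0.91 for Rpl13a, -0.87 for Rpl10a, -0.85 for Rpl27a and for Rps16, -0.72 for Rpl7, -0.71 for Rpl9 and -0.69 for Rpl22, and it was -0.91 for the X-linked Rpl10. For Rpl4 much of it lay between WT and 3BKO (-0.54 and -0.72). For Rps12, Rpsa, Rpl41 and Rpl10a more of it lay between WT and 3AKO, and their batch 1 ratios of 3BKO to WT were between -0.10 and -0.01. Under median-ratio factors the batch 1 median of the members in 3BKO was 0.02, so the sign of such small ratios depends on the scaling.

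Outside the members the distance was -1.11 for Fau, -0.61 for Rack1 and -0.39 for Rps3a1, which are also proteins of the ribosome. It was -0.79 for Eef2, -0.63 for Eef1a1 and -0.63 for Npm1. Rpl10l went the other way, lower than WT in 3AKO (-0.13 and -0.89) and higher in 3BKO (1.5 and 1.7), with a distance of 2.11.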

How the results depend on the processing

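Alternatives kept the order of the day 9 groups, 3AKO above WT above 3BKO, in the share of ribosomal protein reads, while moving the shares themselves, which over both batches were 9.45%, 11.1% and 9.41% (WT, label 3AKO, label 3BKO) at day 3 and 8.97%, 11.2% and 7.45% at day 9. In the same order they were 9.75, 11.5, 10.03, 8.90, 11.1 and 7.41 with the stricter cell filter, 11, 13.1, 10.3, 9.99, 11.9 and 9.47 in batch 1, and 7.11, 7.80, 8.16, 6.86, 9.99 and 5.55 in batch 2. They were 10.1, 11.6, 10.1, 9.26, 11.4 and 8.37 as the mean over cells, 10.2, 11.6, 10.2, 9.31, 11.5 and 8.44 with thinned cells, 8.48, 10.2, 8.35, 8.43, 10.4 and 6.88 with mitochondrial genes in the total, and 9.98, 11.7, 9.82, 9.08, 11.3 and 7.56 without Gm42418. With no cell filter the labels 3AKO and 3BKO at day 3 had 10.98 and 9.23, and WT at day 9 had 8.96.

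Counts of members past 0.5 moved as follows. In 3AKO against WT it was 49 in batch 2 alone. In 3BKO against WT, lower members numbered 20 in batch 2 alone, 5 with the mean over cells, and 0 with TMM and with median-ratio factors. In 3BKO against 3AKO they numbered 59 in batch 2 alone. Lower members from day 3 to day 9 in WT numbered 10 in batch 1 alone, 8 in batch 2 alone, 2 with mitochondrial genes in the total, 13 with TMM, 12 with median-ratio factors and 3 with a pseudocount of 10. Members higher in label 3BKO at day 3, batch 1, numbered 9 with no cell filter, 28 with the stricter one, 9 with TMM and 11 with median-ratio factors. Higher members at day 9 numbered 16 under label 3AKO in batch 1 with TMM, and 11 under label 3BKO in batch 2 with mitochondrial genes in the total. Members shifting their share in WT between the days numbered 11 in batch 1 alone and 15 in batch 2 alone. The cause was not tested for any of these, except that a count in 1 batch asks less than a count in both.

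Of 192 checks on the median of the members 176 moved by less than 0.1 and kept their sign, and 2 reversed, to 0.016 for 3BKO against WT in batch 1 with median-ratio factors and to 0.038 for day 9 against day 3 in WT in batch 2 with mitochondrial genes in the total. The other 14 moved by more with the same sign. The label 3AKO to WT median at day 3 in batch 2 fell from 0.23 to 0.032 with the mean over cells and 0.022 with thinned cells, and the rest were 3BKO to 3AKO in batch 2 (-0.79 and -0.78 in place of -0.89), WT between the days (-0.31 to -0.18) and the mutant labels between the days (-0.24 in batch 1 for 3AKO and -0.72 to -0.44 in batch 2 for 3BKO). The next count includes checks under other detection limits, which do not enter the ratio of a member and so could not fail. Of 348 checks on members past 0.5 in both batches, the mean of the batches stayed past it in 339, and both batches did in 318, with no change of sign. The 30 others include Rpl4 and Rpl29 in 3BKO against WT (TMM and median-ratio factors), Rplp0, Rpl28, Rpl18 and Rplp1 in 3BKO against 3AKO (median-ratio factors), Rpl13a there and Rpl41 in 3AKO against WT (weighting of cells), and Rpsa, Rps27a, Rps10 and Rpl39 between the days. No paired analysis was possible because each group is 1 sample and no result comes from a test. Depth limits what can be said of Rpl24 and Rps10.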
